A study of Rattus norvegicus with 9 samples.

Results

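Wnt and BMP signalling genes are described here across 9 messenger RNA libraries of rat endometrium. The set holds 50 genes listed by symbol, 31 of the Wnt pathway and 19 of the BMP pathway, and each matched 1 of the 22250 gene rows of the expression table. Of these, 48 had enough counts to be tested, among 14229 tested genes. Dkk1, a secreted Wnt inhibitor, had 0 counts in every library, and Smad9, a BMP signal transducer, had 11 counts in all.

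Tissue came from female Sprague-Dawley rats, 10 weeks old, that were mated after treatment. LER+LIG rats received hydroxyurea at 450 mg/kg by gavage daily for 10 days and adrenaline at 0.3 mg/kg under the skin daily from day 4 to day 10. After mating they received LIG (ligustilide, a phthalide compound, per the series title) at 40 mg/kg by gavage daily, beginning on day 0.5 of gestation. LER rats had the same drugs and then olive oil, and NER rats had saline and then olive oil. Each group had 3 libraries. The labels do not say whether each library is a separate animal, so p-values measure only the spread between these libraries, which may be technical. The sources used here do not give the day of tissue collection.

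Wnt ligands bind Frizzled receptors together with the co-receptors Lrp5 and Lrp6, which stabilises beta-catenin and lets it act with TCF/LEF factors on target genes such as Axin2. Secreted antagonists hold the ligands or block the co-receptors. BMP ligands bind paired type I and type II serine/threonine kinase receptors, which phosphorylate Smad1, Smad5 and Smad9, and the Id genes are direct targets. In the mouse uterus, Wnt4 and Bmp2 are needed for stromal cells to become decidua, Wnt7a is made by luminal epithelium and Wnt5a by stroma.

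Total counts were 13241236 to 15353702 per library. The first principal component of log2 CPM (counts relative to the TMM-scaled library size) over all tested genes held 44.4% of the variance. LER+LIG replicates 2 and 3 lay at 71.3 and 74.0 on it, as did NER replicate 3 at 84.5, while the other 6 libraries lay between -68.1 and -28.7. These 3 libraries differed from the rest in marker genes as well. The 5 oestrogen-responsive uterine genes listed (Muc1, Ltf, C3, Lcn2 and Clu) summed to 2450 to 13900 CPM in them and to 161 to 302 CPM in the other 6. C3 gave most of this sum in the 3, at 2170 to 13100 CPM, and Muc1 and Lcn2 were also higher in them. Clu overlapped, at 77.3 to 234 CPM against 128 to 235 CPM, and Ltf was at most 0.476 CPM. The 5 progesterone-responsive genes (Ihh, Areg, Calca, Hand2 and Cyp26a1) summed to 9.49 to 12.3 CPM in them and to 153 to 298 CPM in the others. Epithelial markers (Epcam, Cdh1, Krt8, Krt18 and Krt19) summed to 1310 to 2460 CPM in the 3 and to 400 to 745 CPM in the 6, and leukocyte markers to 444 to 666 CPM in the 3 and to 142 to 257 CPM in the 6. Single markers did not all follow their sums. Epcam overlapped, at 227 to 393 CPM in the 3 and 183 to 336 CPM in the 6, as did the leukocyte marker Cd3e and the progesterone-responsive Hand2. Smooth muscle markers summed to 8790 to 15600 CPM in LER+LIG, 12800 to 17000 CPM in LER and 13800 to 16900 CPM in NER, so muscle RNA was present in every library. Adipocyte markers summed to 558 CPM in LER replicate 1 and to 2.28 to 82.1 CPM in the other 8. Endothelial markers (Cdh5, Kdr, Tie1 and Emcn) summed to 377 to 403 CPM in LER+LIG, 404 to 501 CPM in LER and 315 to 509 CPM in NER. Of these only Kdr did not overlap between LER+LIG and LER. LER+LIG replicate 2 had the lowest stromal marker sum, 7090 CPM against 25500 to 40000 CPM in the other 8. The collagen genes Col1a1 and Col3a1 were lowest there, at 2070 and 1840 CPM. The other stromal markers were not: Pdgfrb was highest there, at 358 CPM against 101 to 195 CPM, and Pdgfra and Dcn lay within the range of the others. Of the decidual markers, Prl8a2 was at 0 counts in all libraries, while Cebpb was at 149 to 305 CPM and Angptl4 at 1.96 to 50.4 CPM. LER+LIG replicate 1 differed in another way: against the other 8 libraries its genes were higher by a median log2 difference of 0.494 among genes up to 1647 bases long and lower among genes of 4575 bases or more, at -0.412. In bulk tissue, fewer cells of a type and less RNA per cell cannot be told apart.

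edgeR called no Wnt or BMP gene in LER+LIG against LER, and DESeq2 called 1, Gdf7; this was the comparison of ligustilide with olive oil in drug-treated rats. In detail, the quasi-likelihood test of edgeR, with p adjusted over all tested genes by Benjamini-Hochberg, called 0 of 48 (background 0.0% of tested genes), and the smallest adjusted p was 0.34, for Gdf7. At an unadjusted p under 0.05 there were 5 lower members (10.4%, background 5.28%) and 1 higher (2.08%, background 7.21%). DESeq2 called Gdf7 as lower (background 1.05%) and 0 members as higher (background 1.03%). The fitted fold change was below 0 in 33 of 48 and above 0 in 15, with a median log2 fold change of -0.23, beside a median of 0.066 over all tested genes. This balance rested on single libraries: 23 of 48 were higher without LER+LIG replicate 1, with a median of -0.052, and 8 were higher without LER+LIG replicate 2, with a median of -0.42. In 8 members (16.7%, background 10.0%) the 3 LER+LIG libraries all lay below the 3 LER libraries: Gdf7, Bmp7, Bmp4, Smad6, Lgr4, Fzd1, Sfrp2 and Wnt2b. In 1 member (2.08%, background 10.4%), Id2, they all lay above. The plot of fold changes shows these 9 genes as filled points.

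**Figure D1:**
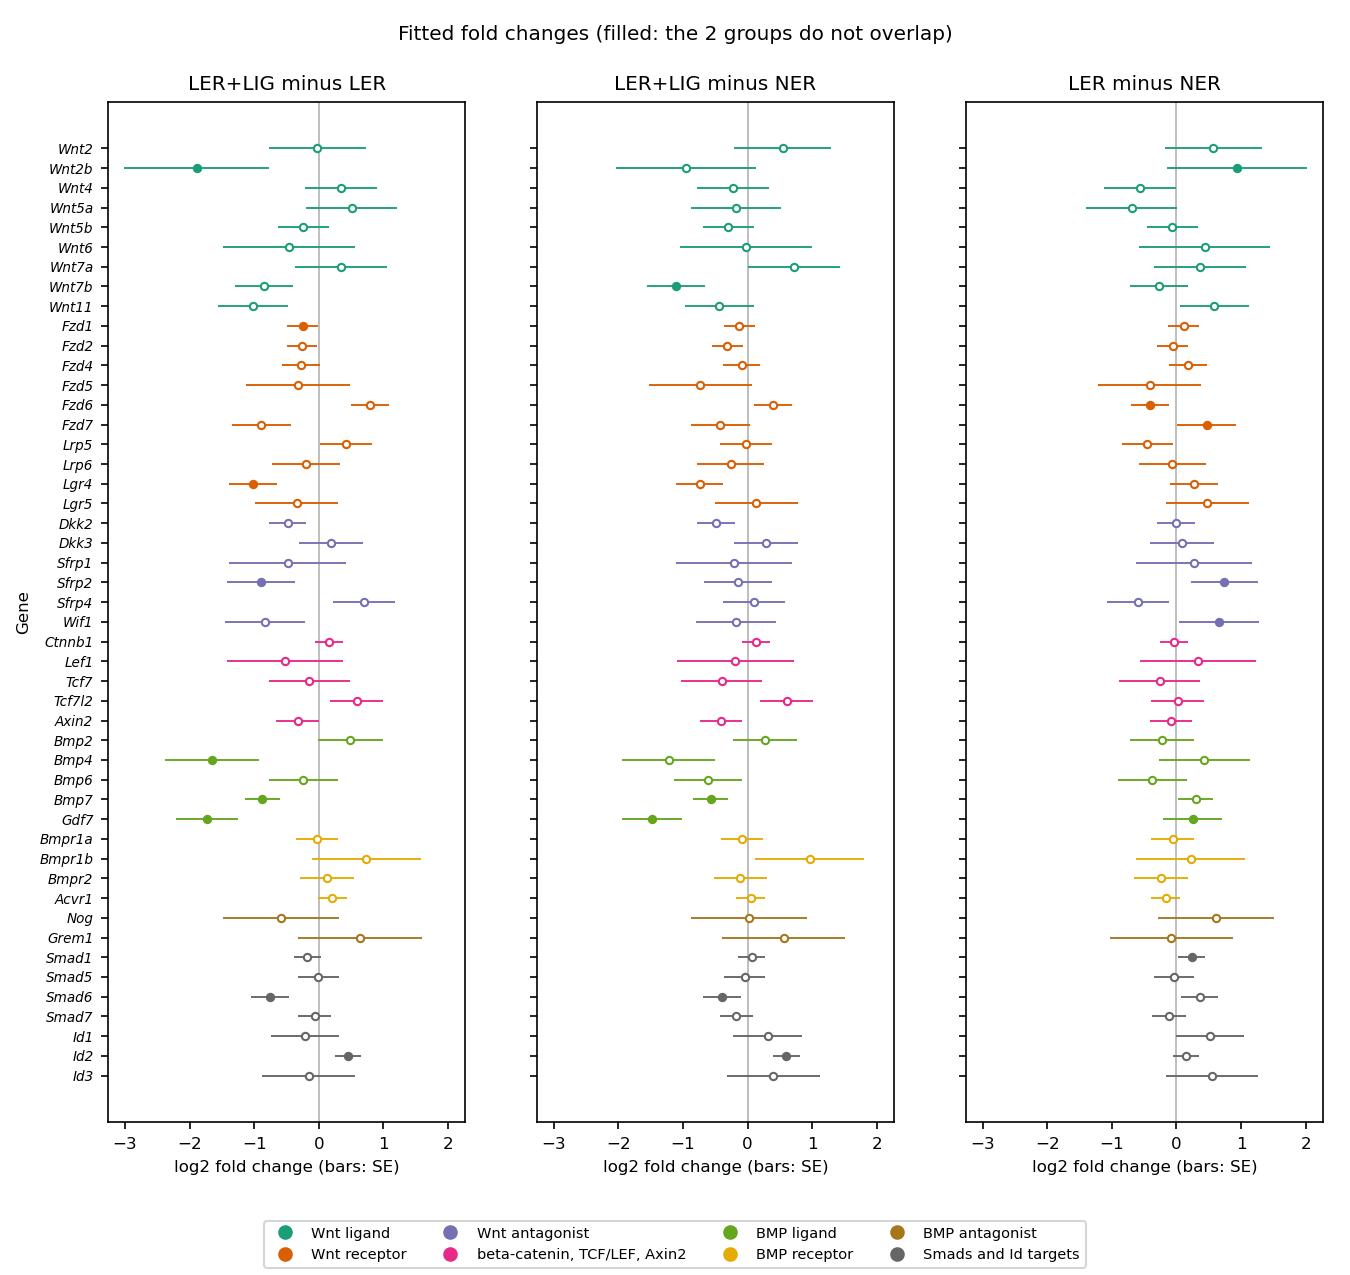
Fitted log2 fold change of each of the 48 tested genes (x axis, points, with standard errors as bars) in the 3 contrasts, coloured by role. Filled points are genes whose 2 groups do not overlap. In LER+LIG minus LER, Gdf7 (-1.73), Bmp4 (-1.65) and Wnt2b (-1.89) lie farthest to the left, and the bar of Wnt2b is the widest of these.

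Among BMP ligands, Gdf7 was the most abundant per length and had the smallest p of all members. Gdf7 encodes a BMP-family growth factor, known from the mouse as a signal of the dorsal spinal cord, and averaged 31.9 FPKM (fragments scaled by gene length and library depth) over the 9 libraries, ranging over 6.59 to 47.8 FPKM. It was at 12.6, 10.7 and 42.6 CPM in the LER+LIG libraries, against 71.6, 75.3 and 72.05 CPM in the LER libraries and 54.5, 69.01 and 60.4 CPM in the NER libraries. The 3 LER+LIG libraries were the 3 lowest of the 9, with replicates 1 and 2 far under replicate 3, while the LER libraries lay close together. Group means were 21.97 ± 17.9 CPM in LER+LIG, against 73.01 ± 2.02 CPM in LER and 61.3 ± 7.32 CPM in NER (n = 3 each, mean and SD). The log2 fold change was -1.73 ± 0.47 (SE) for LER+LIG minus LER, at adjusted p = 0.34 by edgeR and 0.0255 by DESeq2, and -1.48 ± 0.47 for LER+LIG minus NER, at adjusted p = 0.87 by edgeR and 0.31 by DESeq2. Without LER+LIG replicate 3 the first of these was -2.65 at an edgeR adjusted p of 0.036. The other leave-one-out values reached -1.42, and Gdf7 lay below 0 in each of them. NER replicate 3, which shares the high oestrogen-responsive sum of LER+LIG replicates 2 and 3, had 60.4 CPM, within the range of the other NER libraries. LER+LIG replicate 1, which does not share it, had 12.6 CPM. At 1660 bases Gdf7 is shorter than the median tested gene of 2726 bases. The part of the marker sums or of gene length in the Gdf7 values was not tested.

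The RefSeq promoter of Gdf7 is shown because this gene had the smallest p of the set (chr6:36901734-36902033, minus strand, GRCr8; 250 bases before to 50 after the start, 5′ to 3′). It holds none of the 3 motifs searched below, so no letters are in capitals.
Gdf7: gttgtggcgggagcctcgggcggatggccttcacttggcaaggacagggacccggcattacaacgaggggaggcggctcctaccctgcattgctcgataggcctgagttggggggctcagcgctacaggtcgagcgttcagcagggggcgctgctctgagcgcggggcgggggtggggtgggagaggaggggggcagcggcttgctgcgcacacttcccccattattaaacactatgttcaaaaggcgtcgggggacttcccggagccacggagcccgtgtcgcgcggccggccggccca

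Bmp7, a ligand needed for uterine receptivity in the mouse, was at 17.5, 21.5 and 28.8 CPM in LER+LIG, against 44.3, 50.7 and 29.2 CPM in LER and 32.5, 35.7 and 32.7 CPM in NER. All 3 LER+LIG libraries lay below the other 6, though LER+LIG replicate 3 and LER replicate 3 were nearly equal. Its log2 fold change for LER+LIG minus LER was -0.87 ± 0.27 (SE), at adjusted p = 0.35 by edgeR and 0.0987 by DESeq2. Bmp4, a ligand close to Bmp2 in sequence, was low throughout, at 4.74, 3.54 and 0.619 CPM in LER+LIG, against 12.5, 8.504 and 6.97 CPM in LER and 7.67, 10.5 and 2.53 CPM in NER. Each LER+LIG library lay below the LER libraries, and NER replicate 3 lay among them. The log2 fold change was -1.65 ± 0.73 at an edgeR adjusted p of 0.40, and -2.18 to -1.17 with 1 library left out. Bmp2, the decidual ligand, averaged 6.23 FPKM, and LER+LIG held both its highest value, 40.5 CPM in replicate 3, and its lowest, 7.83 CPM in replicate 2. Bmp6, a ligand known for iron regulation in liver, ranged over 1.56 to 7.19 FPKM and was highest in NER replicate 3. Summed over the 5 ligands, FPKM was 23.0, 23.9 and 55.3 in LER+LIG, 81.8, 85.2 and 69.8 in LER and 60.6, 71.5 and 65.7 in NER, with Gdf7 giving 53.5% of the mean sum. These sums are not on 1 scale between libraries. FPKM over all genes summed to 605152 in LER+LIG replicate 1 and to 472730 to 497230 in the others.

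**Figure D2:**
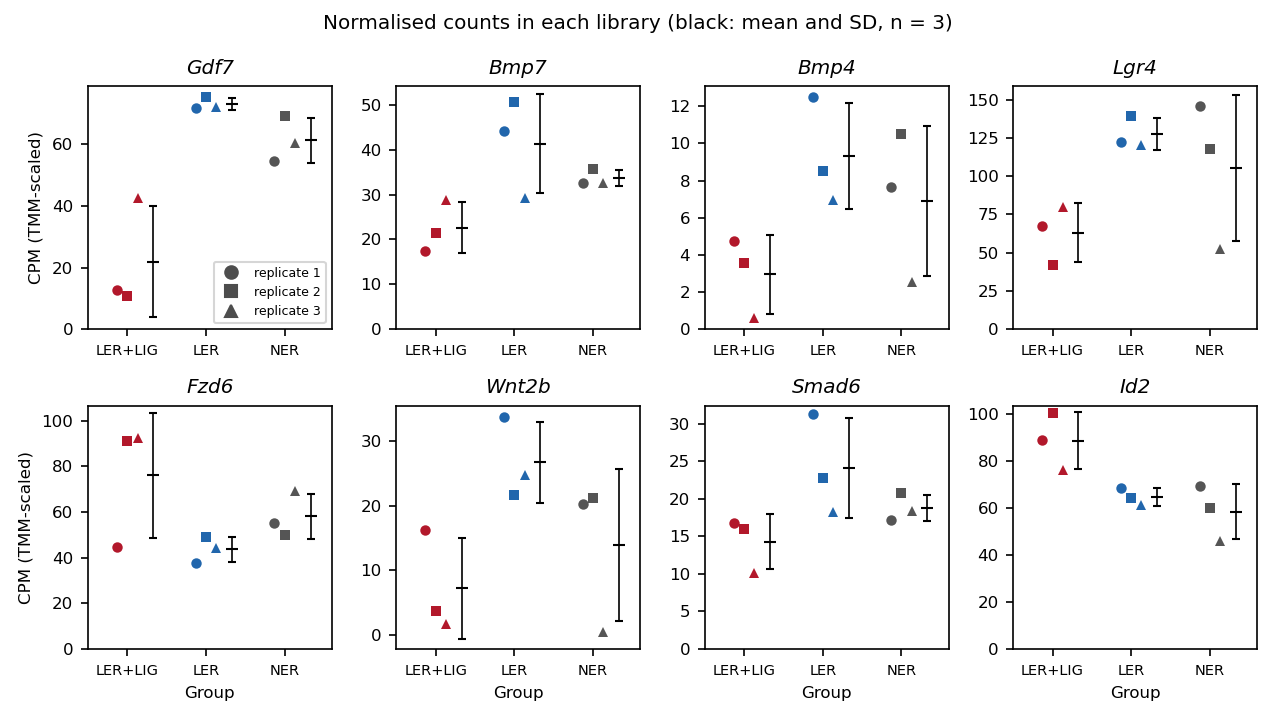
Normalised counts (CPM, y axis) in each library for 8 genes, with groups on the x axis, a marker shape for each replicate, and mean and SD in black (n = 3). The LER+LIG points of Gdf7 and Bmp7 lie below all LER and NER points, those of Id2 lie above all of them, and NER replicate 3 is low for Bmp4, Lgr4 and Wnt2b.

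None of the 4 BMP receptors of the set separated the groups. Bmpr1a, a type I receptor and the most abundant of the 4 per length at 32.9 FPKM, was at 59.2, 112 and 129 CPM in LER+LIG, against 86.7, 109.5 and 109.9 CPM in LER and 146, 94.9 and 77.8 CPM in NER. Bmpr2, the type II receptor, was at 22.4, 78.5 and 74.8 CPM in LER+LIG, against 43.7, 59.2 and 57.9 CPM in LER and 74.1, 49.5 and 66.2 CPM in NER. Both were lowest in LER+LIG replicate 1, and the groups overlapped. Acvr1, another type I receptor, varied least of the 4 between libraries, at 34.4, 54.5 and 36.96 CPM in LER+LIG, against 32.2, 39.9 and 36.6 CPM in LER and 42.5, 40.5 and 38.8 CPM in NER. Bmpr1b, a type I receptor with 344 counts in all, was at 0.415, 7.96 and 2.94 CPM in LER+LIG, against 1.698, 2.61 and 2.49 CPM in LER and 3.11, 1.33 and 1.38 CPM in NER, so LER+LIG held both its lowest and its highest library. For LER+LIG minus LER the 4 log2 fold changes were -0.027 ± 0.33, 0.13 ± 0.42, 0.21 ± 0.23 and 0.74 ± 0.84 (SE) in the order named, with edgeR adjusted p of 0.72 to 0.98.

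Nog and Grem1, the extracellular BMP antagonists of the set, did not separate the groups either. Nog, which encodes noggin, was at 7.81, 1.56 and 1.005 CPM in LER+LIG, against 5.36, 5.29 and 4.91 CPM in LER and 3.18, 6.40 and 0.579 CPM in NER, and its 3 lowest libraries were LER+LIG replicates 2 and 3 and NER replicate 3. Grem1, which encodes gremlin, was at 35.7, 88.6 and 3.402 CPM in LER+LIG, against 9.78, 29.8 and 42.8 CPM in LER and 52.4, 20.6 and 13.8 CPM in NER. Within LER+LIG alone Grem1 thus spanned its lowest and highest values of the 9 libraries. The edgeR adjusted p for LER+LIG minus LER was 0.81 for Nog and 0.81 for Grem1, and the log2 fold change of Grem1 became -0.52 in place of 0.64 without LER+LIG replicate 2.

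Inside the cell, the inhibitor Smad6 and the target Id2 had the 3 LER+LIG libraries at opposite ends of the 9, and edgeR and DESeq2 called neither gene. All 3 lay at the low end in 6.25% of members (background 2.93%) and at the high end in 2.08% (background 3.04%). Smad6, which blocks BMP receptor signalling, was at 16.8, 16.0 and 10.1 CPM in LER+LIG, against 31.3, 22.7 and 18.2 CPM in LER and 17.2, 20.7 and 18.4 CPM in NER. Its LER+LIG libraries were the 3 lowest, with a log2 fold change against LER of -0.75 ± 0.29 (SE) at an edgeR adjusted p of 0.37. The endothelial marker sums also lay lower in LER+LIG than in LER, but overlapped with NER. LER replicate 1, highest in Smad6, had the highest adipocyte sum. The part of these sums in the Smad6 values was not tested. Id2, a helix-loop-helix inhibitor of differentiation, was at 88.98, 101 and 76.3 CPM in LER+LIG, against 68.8, 64.2 and 61.3 CPM in LER and 69.3, 59.9 and 46.1 CPM in NER. In Id2 the LER+LIG libraries were the 3 highest, with log2 fold changes of 0.45 ± 0.21 against LER at adjusted p = 0.41 and 0.60 ± 0.21 against NER at adjusted p = 0.87, both by edgeR. Id3, a BMP target like Id2 and the most abundant gene of its role at 155 FPKM, did not share this order, with 295, 146 and 50.8 CPM in LER+LIG, against 244, 157 and 147 CPM in LER and 155.5, 189.5 and 28.3 CPM in NER. Id1 had its lowest value in the same library as Id3, 50.9 CPM in NER replicate 3, and its highest in LER+LIG replicate 1 at 235 CPM. The transducer Smad1 was at 82.2, 111 and 76.2 CPM in LER+LIG, against 101, 99.6 and 105 CPM in LER and 89.9, 97.97 and 70.2 CPM in NER. Smad5 averaged 23.7 FPKM and Smad7, an inhibitor, 8.25 FPKM, and their log2 fold changes for LER+LIG minus LER were -0.0067 ± 0.32 and -0.063 ± 0.26 (SE).

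**Figure D3:**
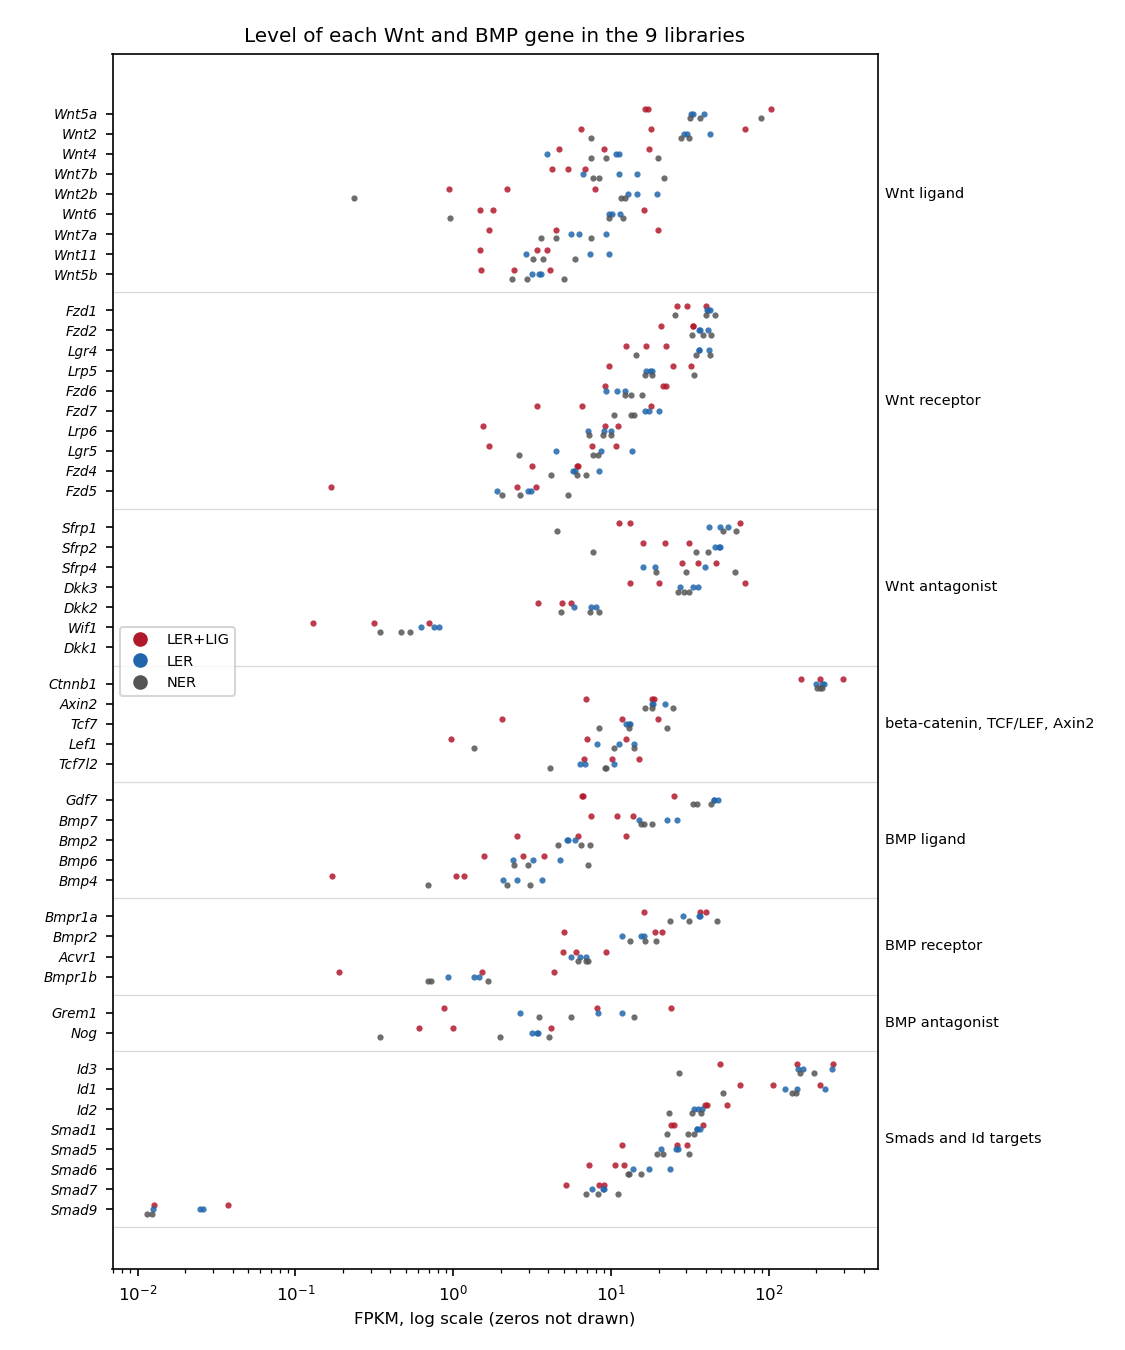
Deposited FPKM (x axis, log scale) of the 50 genes, grouped by role and ordered by mean, with 1 point per library coloured by group. Ctnnb1, Id3 and Id1 are the most abundant, with means of 215, 155 and 137 FPKM, and Wnt2b spreads from 0.236 to 19.7 FPKM.

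Wnt ligands were led per length by Wnt5a and Wnt2, at means of 44.3 and 29.3 FPKM, and the other 7 had means of 3.17 FPKM for Wnt5b to 10.4 FPKM for Wnt4. Wnt5a, a stromal ligand of non-canonical signalling, was at 94.5, 83.2 and 529 CPM in LER+LIG, against 154, 184.5 and 158 CPM in LER and 156, 177.5 and 465 CPM in NER. Its 2 highest libraries were LER+LIG replicate 3 and NER replicate 3, and the other 7 lay at or under 184.5 CPM. Wnt2b was at 16.2, 3.74 and 1.701 CPM in LER+LIG, against 33.7, 21.6 and 24.8 CPM in LER and 20.2, 21.2 and 0.434 CPM in NER. All 3 LER+LIG libraries lay below LER, and NER replicate 3 lay lowest of all, so the log2 fold change of -1.89 ± 1.12 (SE) for LER+LIG minus LER, at an edgeR adjusted p of 0.50, stands beside a still lower NER library. Without LER+LIG replicate 1 this fold change was -3.31.

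Wnt7b, a canonical ligand, was at 38.3, 25.1 and 20.96 CPM in LER+LIG, against 68.1, 51.9 and 31.2 CPM in LER and 40.4, 103 and 39.2 CPM in NER. The LER+LIG libraries of Wnt7b were all below NER, and LER replicate 3 overlapped with LER+LIG. The log2 fold change was -1.11 ± 0.45 (SE) against NER at an edgeR adjusted p of 0.87, and without NER replicate 2 it was -0.50. Wnt11, a non-canonical ligand, was at 11.7, 3.68 and 8.97 CPM in LER+LIG, against 24.1, 18.01 and 7.18 CPM in LER and 8.15, 14.8 and 9.99 CPM in NER, and LER held its 2 highest libraries and its second lowest. Wnt4 and Wnt7a did not separate the groups. Wnt4 ranged from 26.2 CPM in LER replicate 3 to 143 CPM in NER replicate 3. Wnt7a lay at 6.15 CPM in LER+LIG replicate 1 and at 60.4 CPM in LER+LIG replicate 2, its extremes over the 9 libraries.

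Wnt receptors were lower in LER+LIG than in LER by fitted fold change in 8 of 10, beside 45.1% of all tested genes, with 0 called by edgeR or DESeq2. Without LER+LIG replicate 1 this count was 5 of 10, beside 49.0% of all tested genes, with Fzd5, Lrp6 and Lgr5 turned to higher. Lgr4, a receptor for R-spondins that strengthens Wnt signals, was at 67.1, 42.0 and 79.8 CPM in LER+LIG, against 122, 139.5 and 121 CPM in LER and 146, 117.5 and 52.6 CPM in NER. Its LER+LIG libraries lay below LER without overlap, and NER replicate 3 at 52.6 CPM lay within the LER+LIG range. The log2 fold change for LER+LIG minus LER was -1.02 ± 0.37 (SE) at adjusted p = 0.36 by edgeR and 0.18 by DESeq2, and -1.23 to -0.82 with 1 library left out. Fzd6, a Frizzled receptor of planar cell polarity, was the 1 receptor with an unadjusted p under 0.05 that was higher, at 44.6, 91.2 and 92.2 CPM in LER+LIG, against 37.9, 48.95 and 44.3 CPM in LER and 55.3, 49.9 and 69.0 CPM in NER. LER+LIG replicate 1 lay within the LER range and NER replicate 3 was the next highest after LER+LIG replicates 2 and 3. Its log2 fold change was 0.80 ± 0.29 (SE) at an edgeR adjusted p of 0.36.

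Fzd7, a Frizzled receptor of canonical signalling, was at 11.1, 48.9 and 18.8 CPM in LER+LIG, against 47.2, 53.97 and 44.7 CPM in LER and 36.97, 38.1 and 30.4 CPM in NER, and LER+LIG replicate 2 lay among the LER libraries while replicates 1 and 3 were the 2 lowest of all 9. Fzd1, the most abundant receptor per length at 36.9 FPKM, was at 154, 171 and 118 CPM in LER+LIG, against 173, 176 and 175 CPM in LER and 172, 196 and 116 CPM in NER. Its LER+LIG and LER libraries did not overlap, with a log2 fold change of -0.24 ± 0.24 (SE) at an edgeR adjusted p of 0.69. The co-receptor Lrp6 was at 18.2 CPM in LER+LIG replicate 1 and at 69.7 to 108.5 CPM in the other 8. Lrp6 is the longest of the members at 10174 bases, and the part of length in its values was not tested. The co-receptor Lrp5 was highest in NER replicate 3 at 177 CPM, followed by LER+LIG replicates 2 and 3.

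Among secreted Wnt antagonists, Sfrp1, Sfrp2 and Sfrp4, which bind Wnt proteins outside the cell, and Dkk3, a divergent member of the Dickkopf family, had means of 31.9 to 39.4 FPKM. Sfrp1 was at 295, 50.03 and 45.1 CPM in LER+LIG, against 208, 153.5 and 183.5 CPM in LER and 238, 195 and 18.4 CPM in NER. LER+LIG replicates 2 and 3 and NER replicate 3 were its 3 lowest libraries, and LER+LIG replicate 1 its highest. Sfrp2 had the same 3 lowest libraries, at 84.2, 36.01 and 52.9 CPM in LER+LIG, against 102.5, 109.5 and 109 CPM in LER and 94.6, 78.5 and 18.6 CPM in NER. For LER+LIG minus LER its log2 fold change was -0.89 ± 0.52 (SE) at an edgeR adjusted p of 0.50, and that of Sfrp1 was -0.48 ± 0.90 at 0.85. Without LER+LIG replicate 1 Sfrp1 was at -1.96.

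Sfrp4 did not follow its relatives, with 304, 197 and 164 CPM in LER+LIG, against 104.5, 86.8 and 217 CPM in LER and 341, 165 and 113 CPM in NER, where the highest library was NER replicate 1 and the lowest LER replicate 2. Dkk2, which acts on Lrp co-receptors, was at 19.9, 19.1 and 12.4 CPM in LER+LIG, against 19.8, 24.9 and 27.2 CPM in LER and 29.2, 25.4 and 17.6 CPM in NER, with a log2 fold change of -0.49 ± 0.29 (SE) against NER at an edgeR adjusted p of 0.87. Dkk3 ranged from 67.4 CPM in LER+LIG replicate 3 to 343 CPM in LER+LIG replicate 2. Wif1, a Wnt-binding inhibitor, had 148 counts in all. Summed over the antagonists, FPKM was 78.8 to 168 in LER+LIG, 148 to 182 in LER and 65.5 to 204 in NER. NER replicate 3 was lowest, and these sums too are not on 1 scale between libraries.

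Downstream of the receptors, the beta-catenin gene Ctnnb1 was the most abundant member at 215 FPKM. It was at 445, 684 and 522 CPM in LER+LIG, against 519, 496 and 459.6 CPM in LER and 511.5, 496 and 502 CPM in NER, with a log2 fold change of 0.16 ± 0.22 (SE) for LER+LIG minus LER. Axin2, the feedback inhibitor that marks canonical Wnt activity, was at 31.99, 70.1 and 75.9 CPM in LER+LIG, against 70.7, 82.97 and 69.8 CPM in LER and 64.3, 70.8 and 102.5 CPM in NER. LER+LIG replicate 1 was its lowest library and NER replicate 3 its highest, and the other 7 lay between 64.3 and 82.97 CPM. Its log2 fold change was -0.42 ± 0.33 (SE) for LER+LIG minus NER at an edgeR adjusted p of 0.89. Tcf7l2, a TCF/LEF factor, was at 60.6, 34.2 and 24.2 CPM in LER+LIG, against 21.4, 22.8 and 35.1 CPM in LER and 31.7, 31.6 and 14.9 CPM in NER, highest in LER+LIG replicate 1. Its relatives Lef1 and Tcf7 were opposed in that library and in NER replicate 3: Lef1 was at 37.3 CPM in LER+LIG replicate 1 and 3.62 CPM in NER replicate 3, and Tcf7 at 3.66 and 36.4 CPM in the same libraries.

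The order of the libraries was therefore described for each member. In 10 of 48 members (20.8%, background 7.76%) LER+LIG replicates 2 and 3 and NER replicate 3 were the 3 lowest libraries: the ligands Wnt2b, Wnt6 and Bmp4, the antagonists Sfrp1, Sfrp2, Dkk2 and Nog, the factor Lef1, and the targets Id1 and Id3. In 2 of 48 (4.17%, background 10.6%), the receptors Fzd6 and Lrp5, they were the 3 highest. These 3 libraries mix a group with ligustilide and a group without it, are no group of the study and were not tested against the rest. The oestrogen-responsive, progesterone-responsive, epithelial and leukocyte marker sums given above move with them, and the part of those in the gene values was not tested. LER+LIG replicate 1 was the lowest library in 18 of 48 members (37.5%, background 26.6%), among them 6 of 10 Wnt receptors and 3 of 4 BMP receptors, and the highest in 7 (14.6%, background 24.0%). The 18 genes had a median length of 2975 bases and the other 30 members one of 3340 bases. The part of length in this order was not tested.

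**Figure D4:**
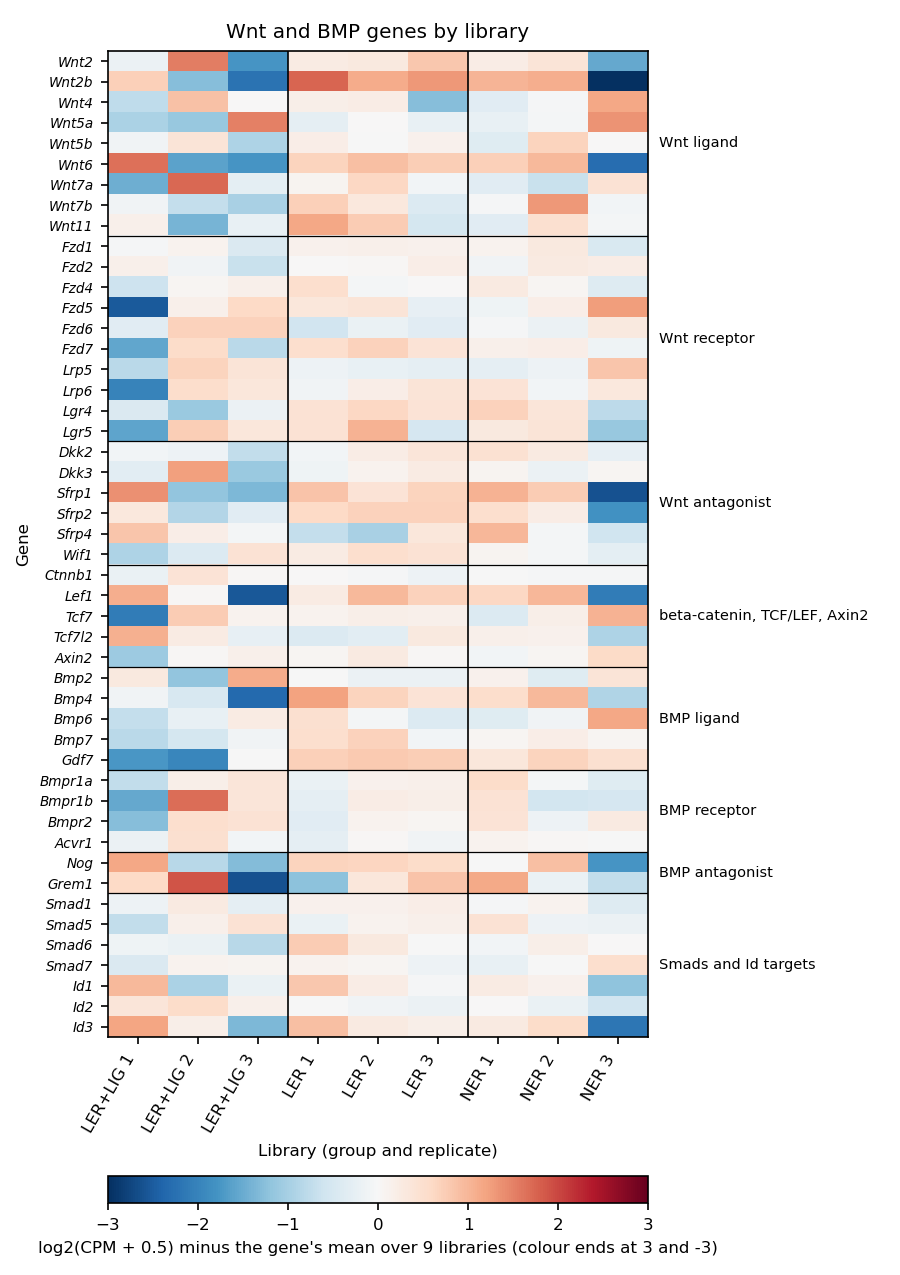
Each tested gene (y axis, by role) in each library (x axis, by group), coloured by its log2(CPM + 0.5) minus its mean over the 9 libraries. Wnt2b, Wnt6, Sfrp1, Nog and Id3 are blue in NER replicate 3, and Fzd5, Lrp6, Lgr5 and Bmpr2 are blue in LER+LIG replicate 1.

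Promoters were also read for motifs of the pathways' own factors. RefSeq promoters of build GRCr8 (300 bases each) were matched by symbol for 34 of the 50 genes. The TCF/LEF core CTTTGA occurred on either strand in 6 of 34 (17.6%) and in 16.1% of all 33469 promoters. GGCGCC, the GC element bound by Smad1 and Smad5, reads the same on both strands and occurred in 11 of 34 (32.4%) and in 11.0% of all. CAGACA, a Smad-binding sequence, occurred in 6 of 34 (17.6%) and in 21.1% of all. The member promoters had a median GC content of 65.2% and all promoters one of 51.7%. A match is only a description of the letters. Axin2 is shown as the canonical Wnt target (chr10:94398535-94398834, plus strand), with its 2 TCF/LEF cores in capitals. Of the 10 members of the shared low order 8 had a promoter, and those of Wnt6, Id1 and Id3 held none of the 3 motifs. The share of all promoters with any of the 3 is not given here, and a link of a motif to the library order was not tested. Wnt2b, Sfrp2, Lef1 and Nog, which with Bmp4 held one, follow, with CAGACA or its complement in capitals in the promoters of Wnt2b (chr2:195156896-195157195, minus strand) and Sfrp2 (chr2:171387286-171387585, plus strand), and GGCGCC in capitals in Lef1 (chr2:222340463-222340762, plus strand) and Nog (chr10:74627452-74627751, minus strand).
Axin2: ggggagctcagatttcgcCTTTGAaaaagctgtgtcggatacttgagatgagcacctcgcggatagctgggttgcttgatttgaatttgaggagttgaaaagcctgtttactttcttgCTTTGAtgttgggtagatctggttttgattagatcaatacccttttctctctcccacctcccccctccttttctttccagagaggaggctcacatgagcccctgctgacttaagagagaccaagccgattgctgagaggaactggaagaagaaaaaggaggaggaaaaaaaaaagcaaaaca
Wnt2b: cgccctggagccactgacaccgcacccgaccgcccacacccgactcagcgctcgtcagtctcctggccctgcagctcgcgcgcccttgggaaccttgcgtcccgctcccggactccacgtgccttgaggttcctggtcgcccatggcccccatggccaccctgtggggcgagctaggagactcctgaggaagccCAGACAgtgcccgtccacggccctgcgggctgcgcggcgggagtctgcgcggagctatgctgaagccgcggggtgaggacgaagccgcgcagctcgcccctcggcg
Sfrp2: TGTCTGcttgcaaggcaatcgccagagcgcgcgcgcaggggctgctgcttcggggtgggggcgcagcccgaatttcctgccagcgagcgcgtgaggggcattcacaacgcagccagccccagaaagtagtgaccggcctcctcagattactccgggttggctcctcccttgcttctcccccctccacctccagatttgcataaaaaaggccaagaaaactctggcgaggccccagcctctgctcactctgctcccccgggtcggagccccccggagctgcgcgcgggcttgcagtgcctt
Lef1: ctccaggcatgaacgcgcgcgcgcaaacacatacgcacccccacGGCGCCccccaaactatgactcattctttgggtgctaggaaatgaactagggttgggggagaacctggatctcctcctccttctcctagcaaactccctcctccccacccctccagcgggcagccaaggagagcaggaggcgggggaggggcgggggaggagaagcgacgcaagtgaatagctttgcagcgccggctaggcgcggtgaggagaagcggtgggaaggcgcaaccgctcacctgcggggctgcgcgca
Nog: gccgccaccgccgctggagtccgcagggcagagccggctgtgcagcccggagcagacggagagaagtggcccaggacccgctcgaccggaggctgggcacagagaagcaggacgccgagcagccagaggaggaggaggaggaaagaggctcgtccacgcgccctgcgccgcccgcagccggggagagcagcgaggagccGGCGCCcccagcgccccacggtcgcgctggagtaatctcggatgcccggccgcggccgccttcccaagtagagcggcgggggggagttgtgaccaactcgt

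Without LER+LIG replicates 2 and 3 and NER replicate 3, the LER+LIG group is LER+LIG replicate 1 alone, assumed to vary like the other groups. edgeR then called 13 members as lower than LER (27.1%, background 15.7%) and 3 as higher (6.25%, background 11.0%). The 13 were the receptors Fzd5, Fzd7, Lrp5, Lrp6, Lgr4, Lgr5 and Bmpr2, the ligands Wnt5a, Wnt7a, Bmp7 and Gdf7, and Tcf7 and Axin2, and the 3 were Wnt6, Sfrp1 and Tcf7l2. Gdf7 had a log2 fold change of -2.56 at an edgeR adjusted p of 0.0008. Against NER the same fit called 12 of 48 members as lower (background 12.2%) and 0 as higher (background 6.41%). These values describe 1 library, the one with the length trend given above, and not a replicated group.

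LER against NER sets rats given the 2 drugs beside rats given saline. edgeR called 0 of 48 (background 0.0%) at adjusted p = 1.00 for all, DESeq2 called 0 (background 0.0141% lower and 0.0% higher), and 0 had an unadjusted edgeR p under 0.05 (background 0.274% higher and 0.597% lower). Of the 48, 26 were higher and 22 lower by fitted fold change, with a median of 0.10, beside -0.018 over all tested genes. In 6 members (12.5%, background 3.78%) the LER libraries all lay above NER: Gdf7, Wnt2b, Fzd7, Sfrp2, Smad1 and Wif1. In Fzd6, the 1 member of the reverse order (2.08%, background 3.37%), LER averaged 43.7 ± 5.55 CPM against 58.05 ± 9.86 CPM for NER (mean ± SD of 3). For Gdf7 the log2 fold change was 0.25 ± 0.46 and for Sfrp2 0.74 ± 0.52 (SE), and that of Sfrp2 was 0.31 without NER replicate 3. Fzd7 averaged 48.6 ± 4.78 CPM in LER, against 35.2 ± 4.17 CPM in NER. Its log2 fold change of 0.47 ± 0.46 (SE) lay between 0.37 and 0.53 with 1 library left out. The edgeR standard errors and p-values of this contrast come from 1 fit over all 9 libraries, so the spread within LER+LIG enters them. In LER+LIG Fzd7 averaged 26.3 ± 20.0 CPM. Wnt2b, Sfrp2 and Smad1 had their lowest value in NER replicate 3.

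LER+LIG against NER shares its libraries with the other contrasts. edgeR called 0 of 48 (background 0.0%), with adjusted p of 0.87 or more, and DESeq2 called 0 (background 0.0354% higher and 0.0707% lower). At an unadjusted edgeR p under 0.05 there were 2 lower members, Gdf7 and Wnt7b (4.17%, background 2.69%), and 1 higher, Id2 (2.08%, background 2.75%). The groups did not overlap in 4 lower members (8.33%, background 4.1%), Gdf7, Bmp7, Smad6 and Wnt7b, and in 1 higher, Id2 (2.08%, background 4.17%). All 3 LER+LIG libraries lay below the other 6 in Gdf7, Bmp7 and Smad6 (6.25% of members, background 2.93%) and above them in Id2 (2.08%, background 3.04%).

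Further genes of the pathways were given by lists of 48 Wnt and 40 BMP genes, of which 34 and 35 were tested. For LER+LIG minus LER edgeR and DESeq2 called 0 in either list, and an unadjusted edgeR p under 0.05 was met by 3 lower (8.82%) and 0 higher Wnt genes and by 4 lower (11.4%) and 3 higher (8.57%) BMP genes, beside backgrounds of 5.28% lower and 7.21% higher. Kremen1, a receptor for Dickkopf proteins, was at 32.2, 41.5 and 38.9 CPM in LER+LIG, against 58.5, 59.7 and 51.1 CPM in LER and 54.5, 57.8 and 44.5 CPM in NER. Its LER+LIG libraries were the 3 lowest, with a log2 fold change against LER of -0.59 ± 0.20 (SE) at an edgeR adjusted p of 0.36. Bcl9l, a beta-catenin cofactor, and Wnt9a, a ligand, had log2 fold changes against LER of -0.97 ± 0.35 and -1.27 ± 0.49 (SE). Bambi, a membrane pseudoreceptor that dampens BMP and TGF-beta signals, was at 43.0, 58.0 and 44.2 CPM in LER+LIG, against 21.7, 27.7 and 18.8 CPM in LER and 23.5, 21.9 and 40.8 CPM in NER. Its LER+LIG libraries were the 3 highest, with a log2 fold change against LER of 1.09 ± 0.30 (SE) at adjusted p = 0.33 by edgeR and 0.062 by DESeq2, and NER replicate 3 was the next highest. Msx2, a homeobox factor and BMP target, was at 3.99, 37.9 and 28.5 CPM in LER+LIG, against 3.87, 3.75 and 3.56 CPM in LER and 4.56, 2.35 and 26.3 CPM in NER, high only in LER+LIG replicates 2 and 3 and NER replicate 3. Acvrl1, an endothelial type I receptor outside the set, was at 74.5, 75.3 and 74.5 CPM in LER+LIG. It was at 108, 93.8 and 98.7 CPM in LER and 94.4, 108.5 and 120 CPM in NER, so its LER+LIG libraries were the 3 lowest. Its log2 fold change was -0.53 ± 0.17 (SE) for LER+LIG minus NER at an edgeR adjusted p of 0.87.

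The authors' deposited table of comparisons holds 48 of the members. Its values were read here at an unadjusted p under 0.05 and a log2 fold change of 1 or more in size. For LER+LIG against LER, 4 of the 47 with a value (Wnt6 has none) met both, all lower (background 3.37% lower and 4.59% higher). For LER against NER, 0 of 48 met both (background 1.35% lower and 0.336% higher). Those 4 were Gdf7 at -1.75, Lgr4 at -1.03, Bmp4 at -1.66 and Wnt2b at -1.88 in the authors' deposited table. Other members met the authors' p but not the fold change. For LER+LIG against LER these were Bmp7, Sfrp2, Smad6 and Wnt7b, all lower, and Fzd6, higher. For LER against NER this was Fzd7, at 0.46, which edgeR did not place under an unadjusted p of 0.05. The share of all genes that met the authors' p alone is not given here.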

How the data were processed

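The authors deposited whole-number read counts per gene and library, and FPKM in the same table, per the file headers. Their deposited table of comparisons gives log2 fold changes and unadjusted p-values, per the file headers. Messenger RNA was poly-T selected, per the labels' protocols. For the aligner, counter, strand setting and genome build, the sources used here name none, so reads of overlapping genes could not be told apart.

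The fit used edgeR 4.0.16 under R 4.3.3: filterByExpr, TMM scaling (factors 0.867 to 1.05), robust glmQLFit over all 9 libraries and glmQLFTest per contrast, with calls at an adjusted p (Benjamini-Hochberg) under 0.05. Rows without a symbol (at most 0.0031% of counts) were left out. Standard errors are the fold change over the root of F. FPKM served to compare levels between genes, to give some levels and role sums per library and to recover gene lengths. Level comparisons are limited to 1 length per gene, and FPKM totals differed between libraries. DESeq2 1.42.0 and other scalings, filters and library sets were alternatives.

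Members, lists and roles were chosen with earlier results of these data known. Values in every library are given for the 3 members of each role with the smallest p in any contrast and the most abundant per length, and for up to 3 further genes per list. No 2 libraries of a group were alike within sampling noise: chi-square over its degrees of freedom was 22.4 or more. On simulated counts edgeR called 0% of 64 genes changed by a log2 of 1, 51.5% of 66 changed by 2 and 80.3% of 66 changed by 3 for LER+LIG minus LER among 14039 genes, and 4.69%, 40.9% and 75.8% for LER minus NER. The simulation gave each gene the same dispersion in all groups and changed LER alone. In the data that chi-square ratio was 154.5 to 278 in LER+LIG, 22.4 to 40.4 in LER and 33.5 to 139 in NER, so recovery there may differ.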

Additional observations from a re-analysis of the deposited data

How the results depend on the processing

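With edgeR, 0 genes were called in each contrast. For LER+LIG minus LER 1 gene was called with upper-quartile scaling, without the filter on low counts and at an adjusted p under 0.10, and 0 to 1 with 1 library left out, where members called were also 0 to 1. DESeq2 called 2 genes for LER minus NER, 299 for LER+LIG minus LER with 1 member among them (145 higher and 149 lower among the genes edgeR tested), and 15 for LER+LIG minus NER. Without LER+LIG replicates 2 and 3 and NER replicate 3 edgeR called 3922 genes and 16 members for LER+LIG minus LER, with a member median of -0.53, and 2730 genes and 12 members for LER+LIG minus NER, with a median of -0.44 and 11 members higher; only 1 LER+LIG library is left there. In that setting Fzd6 was at -0.0022, Sfrp1 at 0.67, Ctnnb1 at -0.17 and Acvr1 at -0.11 for LER+LIG minus LER, and Bmpr1b at -2.42 for LER+LIG minus NER, all with the sign turned. With 1 library left out, the member median ranged from -0.42 to -0.052 for LER+LIG minus LER with 8 to 23 members higher, from -0.32 to -0.020 for LER+LIG minus NER with 12 to 23 higher, and from 0.020 to 0.22 for LER minus NER with 26 to 31 higher. In such settings the sign turned in 1 or more for 22 of 48 members for LER minus NER, 23 for LER+LIG minus LER and 32 for LER+LIG minus NER. Among genes given per library, in the contrast of smallest p, these were Ctnnb1 (-0.046 to 0.27), Acvr1 (-0.047 to 0.31) and Grem1 (-0.52 to 1.18) against LER, and Bmpr1b (-0.23 to 1.48) and Bmpr1a (-0.31 to 0.21) against NER. The cause was not tested. For the 28 genes given per library, each in its contrast of smallest p alone, 457 values under alternative settings kept their sign and their side of the threshold, 8 passed the threshold and 11 turned. Whether replicate numbers pair the libraries could not be decided. Same-numbered libraries of different groups had correlations of -0.19 to 0.51 after group means were removed. NER replicate 2 correlated best with LER+LIG replicate 1 at 0.54. At 3 libraries a group, removing the group mean makes the values of a group depend on each other, so these correlations cannot exclude pairing. With the replicate block 0 genes and 0 members were called in each contrast, with member medians of 0.14 for LER minus NER, -0.32 for LER+LIG minus LER and -0.21 for LER+LIG minus NER. At 3 libraries a group, a log2 change of 1 was rarely called in simulated counts with the same dispersion in all groups, which the data do not have. Genes such as Bmp4, Nog, Wif1 and Bmpr1b rest on few reads.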

Other observations

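Sostdc1, a secreted antagonist of both Wnt and BMP signals, was chosen after its values were seen. It was at 1238, 3.13 and 45.2 CPM in LER+LIG, against 932, 488 and 431 CPM in LER and 775, 687 and 7.24 CPM in NER. LER+LIG replicates 2 and 3 and NER replicate 3 were thus its 3 lowest libraries, as they were for 6 of the 35 further BMP genes tested (17.1%, background 7.76%) and for 2 of the 34 further Wnt genes (5.88%). Its log2 fold change for LER+LIG minus LER was -0.53 ± 1.72 (SE), at an edgeR adjusted p of 0.92. Fst, which encodes the activin-binding protein follistatin, had the same order and was also chosen after its values were seen, with 149, 9.05 and 11.6 CPM in LER+LIG, against 195, 179.7 and 193 CPM in LER and 241, 189.5 and 3.98 CPM in NER. Inhbb, an activin subunit gene chosen in the same way, had the reverse order, with 20.6, 147 and 351 CPM in LER+LIG, against 26.1, 31.2 and 19.6 CPM in LER and 28.3, 18.3 and 314 CPM in NER. The marker sums given for these 3 libraries move with these values, and their part in them was not tested.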
